A study of Macaca fascicularis with 15 samples.

Results

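CDH5, KDR and PDGFRB are receptors and adhesion molecules of the blood vessel wall, and their transcript levels were followed across 4 tissue preparations of the cynomolgus monkey (Macaca fascicularis) eye. They were chosen by name: each occurs once in every one of the 11 tables, and together they are 3 of 12995 genes. The preparations were central retina (4 libraries, headed macula in their tables), peripheral retina (3 libraries), whole retina (2 libraries) and whole eye (2 libraries). All animals were wild type, the labels name no treatment, each sample came from 1 eye, and the tissue had been kept in RNALater. The labels give no animal, age, sex, date or batch. They call the eye and retina samples biological replicates and do not say this of the central and peripheral ones. The spread between central or peripheral libraries could thus be partly technical. It enters the p-values of every comparison in the main fit below, because 1 variance per gene was shared over the 4 tissues.

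Vessels of the eye are lined by endothelial cells and wrapped by mural cells, which are pericytes on capillaries and smooth muscle on larger vessels. CDH5 (VE-cadherin) holds neighbouring endothelial cells together at adherens junctions. KDR (VEGF receptor-2) is the main signalling receptor for VEGF-A on endothelium, and in mice it has also been described on retinal neurons and Müller glia. PDGFRB is the receptor through which endothelial PDGF-B recruits and keeps pericytes. The inner retina has its own capillary beds with a tight barrier, the centre of the fovea lacks them, and the choroid behind the retina carries a dense, leakier vascular bed with much smooth muscle and stroma around it.

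The deposited values are normalised signal per gene, with no stated unit or length scaling, so levels are compared between libraries and not between genes. The values of a library summed to between 299480 and 375035, and 171 to 501 genes per library were listed at 0. The whole retina libraries carried markers of tissue outside the neural retina at levels nearer to those of whole eye than to those of either region. RPE65, the retinoid isomerase of the pigment epithelium, lay at 4.48 to 6.40 in central retina, 6.18 to 7.48 in peripheral retina, 223.79 to 267.92 in whole retina and 260.90 to 285.76 in whole eye. The summed signal of 6 smooth muscle genes was 44.97 to 63.58 in central retina, 47.4 to 55.06 in peripheral retina, 1435.41 to 1737.16 in whole retina and 734.29 to 1428.84 in whole eye. The summed signal of 8 stromal genes lay between 7.34 and 12.01 in central retina, 18.82 and 29.06 in peripheral retina, 535.87 and 577.81 in whole retina, and 569.91 and 772.77 in whole eye. Differences were tested with limma, a linear model fitted to log2(value + 1) of all genes, and called at a Benjamini-Hochberg adjusted p under 0.05. None of these smooth muscle or stromal genes was called between whole retina and whole eye, where 2.27% of all tested genes were called. At an unadjusted limma p under 0.05, 3 of 6 smooth muscle genes were higher and 1 of 8 stromal genes lower in whole retina. The part of these other cell types in the comparisons with whole retina was not tested. Some table names begin with another name in the tables, and values of such genes may be exchanged between libraries. None of CDH5, KDR and PDGFRB has such a name, and of the genes named here RPE65, MYH11, CD248, TEK, ABCB1 and LRRC32 have one. Of the 127 genes in the lists used below, 25 have one, and these enter the list counts, medians and sums.

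CDH5 was low in both regional preparations and several fold higher in whole retina and whole eye. Its signal was 1.31, 1.14, 1.15 and 1.28 in the 4 central libraries and 1.33, 0.80 and 0.92 in the 3 peripheral libraries. It was 8.07 and 6.72 in whole retina and 5.71 and 3.93 in whole eye. No regional library reached the lowest whole eye library, while central and peripheral values overlapped. PDGFRB had the same order of preparations apart from the regional pair. Its signal was 4.02, 3.57, 3.68 and 3.18 in central retina and 4.86, 4.79 and 4.40 in peripheral retina. It was 15.34 and 12.25 in whole retina and 11.07 and 8.43 in whole eye. Every peripheral library lay above every central library, and both lay below whole eye. KDR did not follow this order. Its signal was 32.95, 36.84, 25.55 and 28.40 in central retina and 55.53, 44.55 and 36.91 in peripheral retina. It was 35.03 and 39.69 in whole retina and 33.13 and 37.04 in whole eye, so whole retina and whole eye overlapped each other and both regional ranges.

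**Figure D1:**
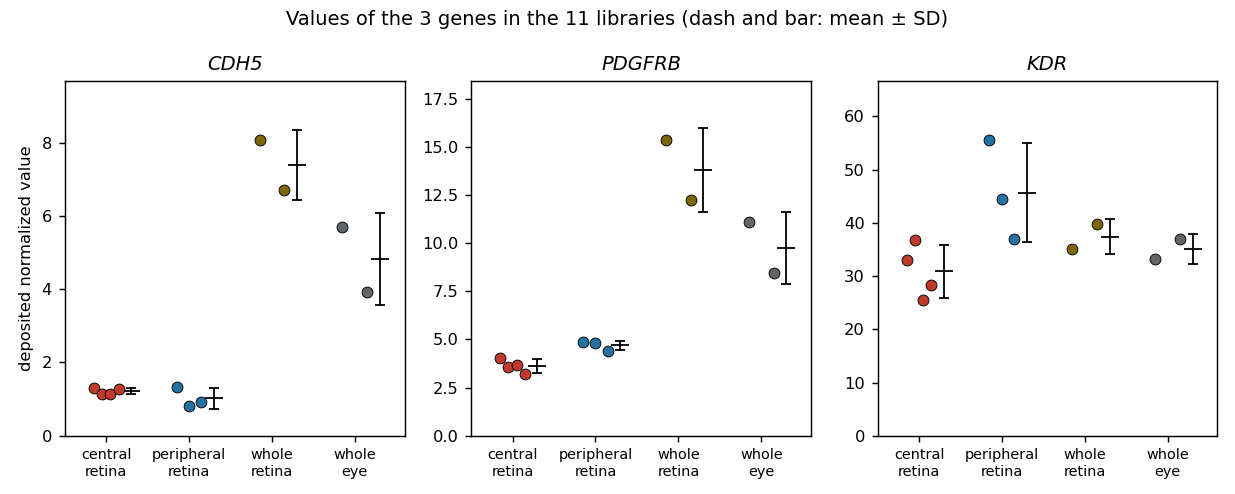
Deposited normalised signal of CDH5, KDR and PDGFRB in each of the 11 libraries, 1 panel per gene, with points for libraries and dash and bar for the group mean and SD. CDH5 and PDGFRB are low in central and peripheral retina, while KDR has its highest library, 55.53, in peripheral retina.

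Central retina was compared with peripheral retina to ask how vessel wall genes differ between regions of the neural retina. KDR was lower in central retina, averaging 30.9 ± 4.98 against 45.7 ± 9.36 in peripheral retina (SD, n = 4 and 3). The log2 difference was -0.54 (SE 0.16, 95% interval -0.89 to -0.20, limma adjusted p = 0.0321), a ratio of means of 0.677. KDR was thus 1 of 3 genes called lower, where 8.76% of all 11933 tested genes were called lower, 12.5% higher and 21.3% in either direction. The call was lost when central replicate 3 (limma adjusted p = 0.0858), central replicate 4 (0.085), peripheral replicate 1 (0.135) or peripheral replicate 2 (0.0936) was left out. PDGFRB averaged 3.61 ± 0.346 in central retina and 4.68 ± 0.248 in peripheral retina, a log2 difference of -0.30 (SE 0.13, 95% interval -0.58 to -0.02). Its ranges did not overlap, as for 15.6% of tested genes in this direction, and it did not pass the threshold (limma adjusted p = 0.113). CDH5 averaged 1.22 ± 0.0876 in central retina against 1.02 ± 0.278 in peripheral retina, with a log2 difference of 0.15 (95% interval -0.16 to 0.46, limma adjusted p = 0.49). In bulk tissue, fewer cells of a type and less RNA per cell cannot be told apart. The summed signal of 8 Müller glia genes lay between 1536.59 and 1907.57 in central retina and between 2586.54 and 3106.59 in peripheral retina. It was higher still in whole retina (3324.09 to 3462.05) and whole eye (3418.31 to 3629.49), where KDR did not exceed its peripheral range. The part of Müller glia in the KDR difference was not tested.

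Each regional preparation was then set against whole retina, with the same 2 whole retina libraries in both comparisons. CDH5 was lower in central retina by a log2 difference of -1.92 (SE 0.16, 95% interval -2.27 to -1.56, limma adjusted p = 2.91e-06), which is 6.06-fold lower by group means. PDGFRB was lower in central retina by -1.68 (SE 0.14, 95% interval -1.99 to -1.36, limma adjusted p = 3.65e-06), or 3.82-fold. These were 2 of 3 genes called lower, where 29.7% of tested genes were called lower, 18.9% higher and 48.7% in all; neither gene overlapped, as for 34.7% in this direction. KDR had a log2 difference of -0.28 (95% interval -0.67 to 0.12, limma adjusted p = 0.226). In peripheral against whole retina, CDH5 was lower by -2.06 (SE 0.17, limma adjusted p = 4.50e-06) and PDGFRB by -1.37 (SE 0.15, limma adjusted p = 4.26e-05), again 2 of 3, where 24.3% of tested genes were called lower, 9.83% higher and 34.2% in all. Neither overlapped, as for 35.6% in this direction. KDR had a log2 difference of 0.27 (95% interval -0.15 to 0.68, limma adjusted p = 0.307). The sizes depend on the pseudocount for these low signals: with 0.1 in place of 1, CDH5 in central against whole retina was -2.50, and with 5 it was -0.99.

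The same pair of genes was lower in the regional preparations than in whole eye, again with the same 2 whole eye libraries in both comparisons. CDH5 was lower in central retina by -1.37 on the log2 scale (SE 0.16, limma adjusted p = 3.07e-05) and PDGFRB by -1.21 (SE 0.14, limma adjusted p = 3.60e-05), where 34.2% of tested genes were called lower, 21.0% higher and 55.2% in all, and 39.3% lay lower without overlap. In peripheral retina CDH5 was lower than in whole eye by -1.52 (SE 0.17, limma adjusted p = 3.65e-05) and PDGFRB by -0.91 (SE 0.15, limma adjusted p = 0.000725), where 27.6% were called lower, 12.3% higher and 39.9% in all, and 40.6% lay lower without overlap. KDR had log2 differences of -0.19 in central (95% interval -0.58 to 0.20) and 0.35 in peripheral retina (95% interval -0.06 to 0.77), neither past the threshold. KDR in peripheral retina against whole eye did pass it, higher, with quantile normalization (0.59, limma adjusted p = 0.0303), median-of-ratios scaling (0.53, limma adjusted p = 0.031) and the replicate block (limma adjusted p = 0.025). Between whole retina and whole eye, 0 of 3 genes were called by limma, where 2.27% of tested genes were called (0.168% higher and 2.10% lower). CDH5 and PDGFRB, 2 of 3, were higher in whole retina without overlap, as for 14.0% of tested genes in this direction. Both also had an unadjusted limma p under 0.05. The share of all tested genes under that unadjusted p was not counted, here or beside the list counts. CDH5 averaged 7.40 ± 0.955 in whole retina and 4.82 ± 1.26 in whole eye (log2 difference 0.54, 95% interval 0.13 to 0.95, limma adjusted p = 0.284). PDGFRB averaged 13.8 ± 2.18 in whole retina and 9.75 ± 1.87 in whole eye (log2 difference 0.46, 95% interval 0.10 to 0.83, limma adjusted p = 0.322). KDR averaged 37.4 ± 3.30 in whole retina and 35.1 ± 2.76 in whole eye (log2 difference 0.09, 95% interval -0.36 to 0.54).

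**Figure D2:**
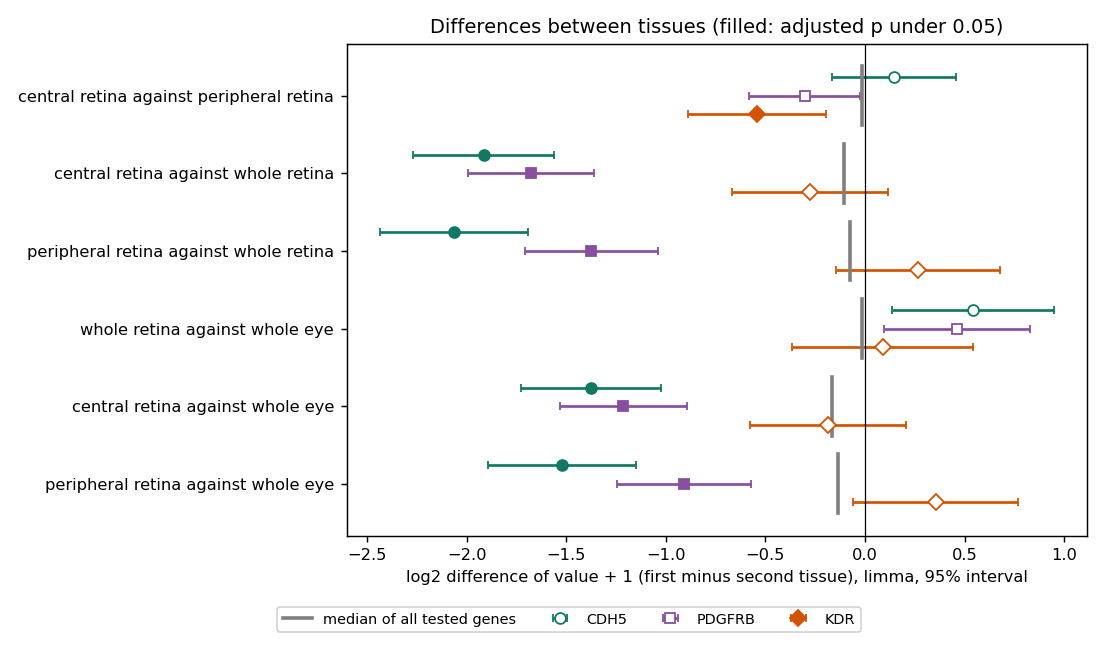
Log2 difference, first-named preparation minus second, with its 95% interval, for CDH5, KDR and PDGFRB in the 6 comparisons, filled where the adjusted p is under 0.05, with a grey line at the median of all tested genes. CDH5 and PDGFRB lie below 0 in all 4 comparisons of a regional preparation with whole retina or whole eye, and KDR is past the threshold, in the fit plotted, in central against peripheral retina.

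By mean level, CDH5 ran from whole retina through whole eye and central retina to peripheral retina, and PDGFRB from whole retina through whole eye and peripheral retina to central retina. In both, the only neighbours in that order that differed past the threshold were whole eye and the regional preparation next to it. KDR ran from peripheral retina through whole retina and whole eye to central retina, and no neighbours differed past the threshold.

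Ratios of signal within a library remove a scaling that its values share, but the tested log2 ratios were taken on value + 1, where it cancels only in part. The ratio of KDR to CDH5 signal averaged 25.5 ± 4.77 in central retina, 45.9 ± 8.56 in peripheral retina, 5.12 ± 1.11 in whole retina and 7.61 ± 2.56 in whole eye. No peripheral library, the lowest at 40.1, reached down to the central libraries, the highest at 32.3, and both regions lay above the highest whole eye ratio of 9.42. The ratio of PDGFRB to CDH5 averaged 2.97 ± 0.329 in central, 4.81 ± 1.17 in peripheral, 1.86 ± 0.0551 in whole retina and 2.04 ± 0.146 in whole eye. The central minus peripheral difference of these log2 ratios was -0.69 for KDR to CDH5 and -0.45 for PDGFRB to CDH5, and with no pseudocount it was -0.85 and -0.67 for the same ratios. Each gave p = 0.0571, with and without the pseudocount, in a two-sided exact permutation test, the smallest that 35 arrangements allow. An exact permutation test over the 4 tissues and 69300 arrangements, added after the values were seen, gave p = 0.000115 for KDR to CDH5 and p = 0.00242 for PDGFRB to CDH5.

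**Figure D3:**
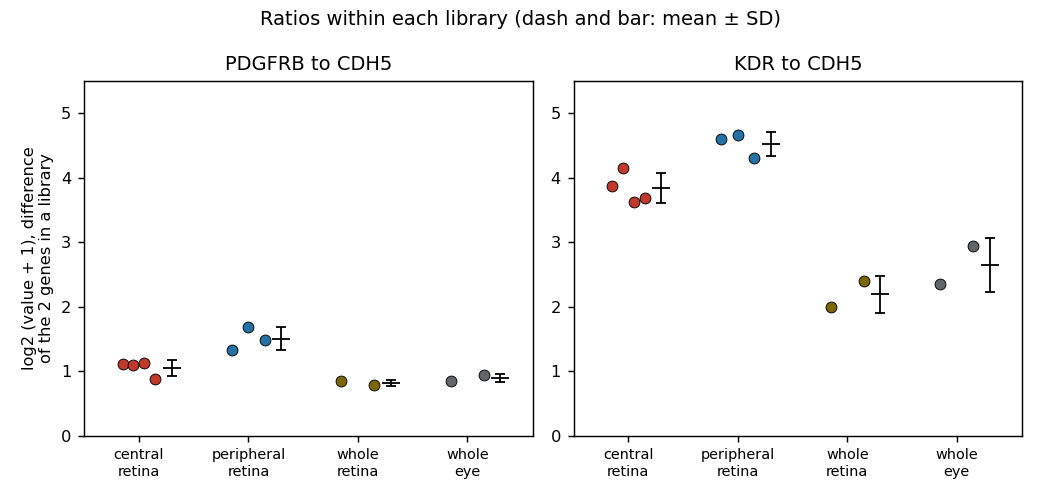
Log2 ratio of signal + 1 within each library for PDGFRB to CDH5 and KDR to CDH5, by preparation, with points for libraries and dash and bar for mean and SD. The KDR to CDH5 ratio is highest in peripheral retina (mean 4.52), next in central retina (3.83), and lower in whole retina (2.19) and whole eye (2.65).

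Other endothelial genes were mostly lower in the regional preparations than in whole retina. Of 21 tested endothelial markers besides CDH5 and KDR, 16 were lower and 0 higher in central against whole retina, and 18 were lower and 0 higher in peripheral against whole retina. Of all tested genes, 29.7% were called lower in central and 24.3% in peripheral against whole retina. With CDH5 and KDR included, the median log2 difference of the list was -0.77 in central (against -0.10 over all tested genes) and -0.84 in peripheral retina (against -0.08). VWF, the clotting factor stored by endothelium, averaged 0.82 ± 0.235 in central and 12.8 ± 5.35 in whole retina (log2 difference -2.88, limma adjusted p = 2.16e-06). FLI1, an endothelial and blood cell transcription factor, averaged 1.11 ± 0.0976 in central and 6.50 ± 3.51 in whole retina (-1.75, limma adjusted p = 5.5e-05). ACVRL1, a BMP receptor of endothelium, averaged 0.995 ± 0.136 in central and 4.05 ± 1.27 in whole retina (-1.32, limma adjusted p = 6.4e-05). KDR was not called in either comparison, nor was FLT1, another VEGF receptor, which is named here after its values were seen. ESAM, ROBO4, SOX7 and SOX18 in central and ROBO4 and S1PR1 in peripheral retina were also not called, and are likewise named afterwards. A further VEGF receptor, FLT4, was too low to be tested. FLT1 averaged 5.05 ± 0.563 in central, 5.32 ± 1.34 in peripheral, 4.40 ± 0.127 in whole retina and 4.76 ± 1.24 in whole eye. Of the 17 central calls, CDH5 included, 13 held whichever library was left out and 8 under every other alternative. Between central and peripheral retina, 3 of the 23 were called: ESAM and SOX7 higher, and KDR lower. Over all tested genes, 12.5% were called higher, 8.76% lower and 21.3% in either direction, so this list was called no more often. ESAM, a tight junction adhesion molecule, averaged 26.3 ± 2.37 in central retina against 18.6 ± 0.327 in peripheral retina (0.47, limma adjusted p = 0.0164), a call lost without peripheral replicate 1 or 2. SOX7, an endothelial transcription factor, averaged 1.92 ± 0.519 in central retina against 1.04 ± 0.325 in peripheral retina (0.51, limma adjusted p = 0.0473), a call lost in 7 of the fits that left out a library. Between whole retina and whole eye 0 of the 23 were called by limma, with 9 higher at an unadjusted p under 0.05, CDH5 among them.

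Of 10 tested pericyte markers besides PDGFRB, 6 were lower and 0 higher in central than in whole retina, and likewise 6 were lower in peripheral than in whole retina. The shares of all tested genes called lower were 29.7% and 24.3%. With PDGFRB included, the list median was -1.09 in central and -1.37 in peripheral retina. CD248, HIGD1B, COX4I2 and VTN were not called in either comparison, and are named here after their values were seen. VTN averaged 134 ± 41.8 in central and 90.6 ± 18.7 in whole retina, and HIGD1B 3.77 ± 1.10 and 2.95 ± 0.0707. CD248 and COX4I2 had lower means in central retina. Against whole eye, VTN was called higher in both regions, where 21.0% (central) and 12.3% (peripheral) of all tested genes were. KCNJ8, a pericyte potassium channel subunit, averaged 2.30 ± 0.531 in central and 56.4 ± 14.2 in whole retina (-4.12, limma adjusted p = 2.83e-07). RGS5, a regulator of G protein signalling in pericytes, averaged 23.0 ± 4.71 in central and 177 ± 45.9 in whole retina (-2.88, limma adjusted p = 4.38e-06). All 6 smooth muscle genes were lower in each region than in whole retina (medians -4.89 in central and -5.19 in peripheral), among them MYH11, smooth muscle myosin, at 1.03 ± 0.111 in central and 369.6 ± 100.3 in whole retina (-7.49, limma adjusted p = 1.39e-09). ACTA2, smooth muscle actin, lay at 6.49 ± 1.68 in central and 771 ± 68.2 in whole retina (-6.71, limma adjusted p = 2.8e-08). Between central and peripheral retina, where 21.3% of all tested genes were called, 1 of 11 pericyte markers was called. This was KCNJ8, at 2.30 ± 0.531 in central retina against 0.967 ± 0.329 in peripheral retina (0.74, limma adjusted p = 0.0359). That call was lost in 5 of the fits that left out a library, and under the replicate block it was also lost. ANPEP, an aminopeptidase found on pericytes and other cells, was the 1 pericyte marker called between whole retina (0.80 ± 0.184) and whole eye (4.33 ± 2.74), with a log2 difference of -1.47 (limma adjusted p = 0.0121), a call lost in the fit on only the 2 groups compared (limma adjusted p = 0.152).

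**Figure D4:**
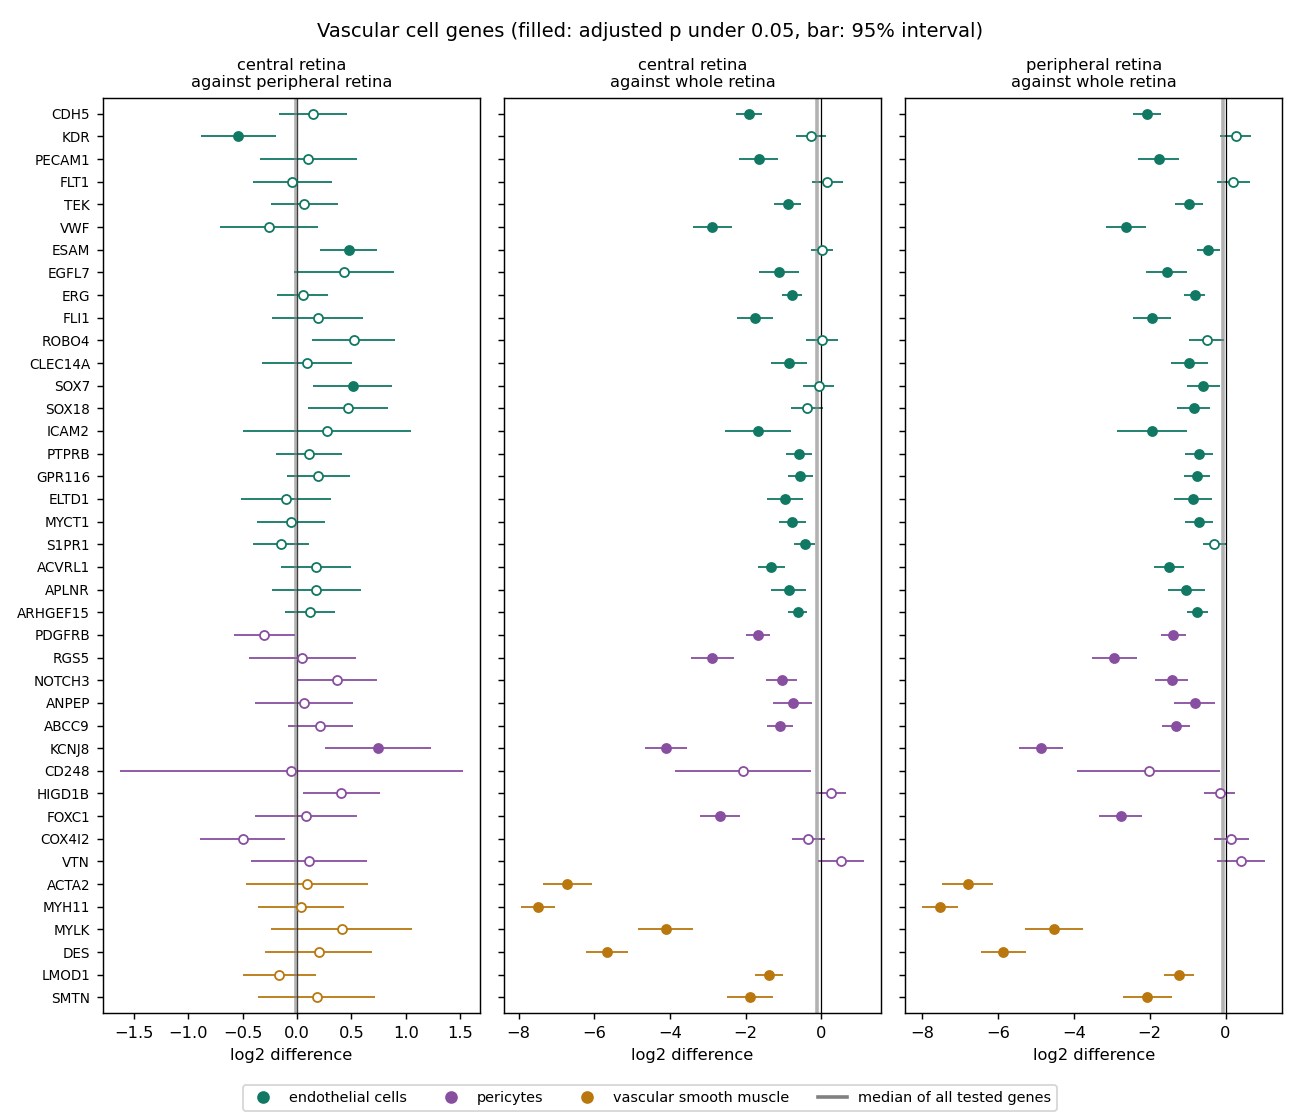
Log2 difference with its 95% interval for each tested endothelial, pericyte and smooth muscle gene in 3 comparisons, filled where the adjusted p is under 0.05, with a grey line at the median of all tested genes. All 6 smooth muscle genes lie below 0 in both regions against whole retina, with medians of -4.89 and -5.19.

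VEGF and PDGF ligands, receptors and co-receptors differed in different directions. Of 7 tested VEGF genes, VEGFA was higher in central than in peripheral retina at 43.5 ± 4.20 against 33.4 ± 1.29 (0.37, limma adjusted p = 0.0479), while its receptor KDR was lower. This is 1 of 7 in each direction, near the shares of all tested genes, 12.5% higher and 8.76% lower. That VEGFA call was lost in 6 of the fits that left out a library and in 3 other alternatives, which were quantile normalization, the replicate block and no variance trend. VEGFA was also higher in central retina than in whole retina, at 43.5 ± 4.20 against 30.7 ± 5.03 (0.49, limma adjusted p = 0.0104), a call lost without whole retina replicate 1 (limma adjusted p = 0.116). The neuropilin co-receptor NRP1 averaged 0.963 ± 0.107 in central and 11.6 ± 1.73 in whole retina (-2.67, limma adjusted p = 1.43e-07), and VEGFC, PGF and NRP2 were also lower in that comparison. PDGFA, a PDGF ligand gene, averaged 7.98 ± 1.01 in central retina against 4.11 ± 0.779 in peripheral retina (0.82, limma adjusted p = 0.00147), and this call held in every alternative run. PDGFD, a ligand of PDGFRB, averaged 1.04 ± 0.199 in central and 8.79 ± 2.45 in whole retina (-2.24, limma adjusted p = 1.38e-06). PDGFB, the ligand by which endothelium recruits pericytes and named here after its values were seen, averaged 1.84 ± 0.208 in central and 4.05 ± 0.919 in whole retina (-0.82, limma adjusted p = 0.00084). Of the 6 PDGF genes besides PDGFRB, 5 were lower in central and 6 in peripheral retina than in whole retina. The shares of all tested genes called lower were 29.7% and 24.3%.

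Signals that shape and seal retinal vessels were tested beside them, and the shares of all tested genes given above apply to these counts too. NDP, the Norrin ligand that directs retinal vessel growth and in mice comes from Müller glia, averaged 5.19 ± 0.743 in central retina against 10.1 ± 0.681 in peripheral retina (-0.84, limma adjusted p = 0.00173), a call that held in every alternative run. JUP, plakoglobin, which binds cadherin tails, averaged 3.65 ± 0.677 in central retina against 7.63 ± 1.20 in peripheral retina (-0.90, limma adjusted p = 0.00243). Of 9 junction genes besides CDH5, 8 were lower in central and 8 in peripheral retina than in whole retina. F11R, a tight junction adhesion molecule, was the 1 junction gene called between whole retina (2.61 ± 0.212) and whole eye (6.76 ± 0.813), lower by -1.10 (limma adjusted p = 0.00336), a call lost in the fit on only the 2 groups compared (limma adjusted p = 0.071). Of 7 Notch genes, the ligand JAG2 was higher in central retina at 8.45 ± 1.20 against 4.75 ± 1.06 in peripheral retina (0.72, limma adjusted p = 0.0136). The Notch target HEY2 was lower in central retina at 5.20 ± 0.415 against 7.31 ± 1.15 in peripheral retina (-0.42, limma adjusted p = 0.029). Both calls were lost in some fits that left out a library. Of 5 barrier transport genes, the transferrin receptor TFRC was higher in central retina at 41.9 ± 12.3 against 22.1 ± 0.800 in peripheral retina (0.85, limma adjusted p = 0.0195). The efflux pump ABCB1 was also higher there, at 1.84 ± 0.258 against 1.11 ± 0.346 in peripheral retina (0.44, limma adjusted p = 0.0427), and both calls were lost without some libraries. ANGPT1, TEK and PTPRB, the 3 tested angiopoietin and Tie genes, were all lower in central and in peripheral retina than in whole retina, and 0 of 3 were called between central and peripheral retina, also at an unadjusted p under 0.05. The PTPRB calls were lost without whole retina replicate 1 and with quantile normalization. CA4, a carbonic anhydrase of choriocapillaris endothelium, averaged 1.04 ± 0.244 in central and 18.8 ± 5.99 in whole retina (-3.25, limma adjusted p = 4.5e-07).

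Markers of other cell types were read beside the vessel genes. Between central and peripheral retina, 6 of 8 Müller glia genes, 5 of 6 pigment epithelium genes, 5 of 5 melanocyte genes and 3 of 8 stromal genes were lower in central retina. RLBP1 counts in both the Müller glia and the pigment epithelium list, so these are not separate, and RPE65 was the pigment epithelium gene not called. Of all tested genes, 8.76% were lower and 12.5% higher in central retina. Of 10 neural retina genes, 2 were higher and 3 lower there, and limma called 0 of 3 blood genes and 0 of 8 microglia genes, with 1 microglia gene lower at an unadjusted p under 0.05. Against whole retina, 8 of 8 microglia, 8 of 8 stromal, 6 of 6 pigment epithelium, 5 of 5 melanocyte, 5 of 8 Müller glia and 2 of 3 blood genes were lower in central retina, and 5 of 10 neural retina genes were higher. Peripheral retina against whole retina gave 8 of 8, 8 of 8, 5 of 6, 5 of 5, 1 of 8 and 2 of 3 lower for the same lists, and 4 of 10 neural retina genes higher. Against whole retina, 29.7% of all tested genes were lower and 18.9% higher in central retina, and 24.3% lower and 9.83% higher in peripheral retina. Against whole eye, all 8 microglia genes and all 3 blood genes were lower in central retina, as were 34.2% of all tested genes. Whole retina replicate 1 stood apart from replicate 2 in the antigen presentation gene CD74, at 1149.47 against 307.69. The summed microglia signal was 1547.94 in whole retina replicate 1 and 450.31 in replicate 2, against 319.84 to 443.82 in whole eye. The summed blood signal was 138.52 to 478.43 in whole retina and 1835.47 to 3030.5 in whole eye. The part of these markers in the differences of CDH5, KDR and PDGFRB was not tested.

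The genes whose log2 signal tracked each of the 3 most closely over the 11 libraries were ranked among 7865 genes. For CDH5 these were CA4 (Pearson r = 0.997), BGN (0.996), STIM1 (0.995), LRRC32 (0.993) and EMILIN1 (0.993). For PDGFRB they were FKBP10 (0.996), CH25H (0.991), FLNA (0.991), LRP10 (0.989) and TENC1 (0.989). For KDR the closest were lower, with NCBP1 (0.923), FTSJD1 (0.917), SERPINI1 (0.915), CABYR (0.914) and GABPA (0.912). CDH5 and PDGFRB had r = 0.96 with each other, while KDR had r = -0.02 with CDH5 and 0.15 with PDGFRB. Among listed genes, chosen after the values were seen, the highest with KDR were SLC1A3 (0.868), the Müller glutamate transporter, and AQP4 (0.853), the glial water channel. The rest of the Müller glia list ran from 0.234 to 0.760 with KDR. The 11 points share 4 tissues, so these values describe the libraries and carry no test.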

How the data were processed

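RNA-seq values were analysed in 11 of the 15 libraries that the labels describe; the other 4, made from whole eyes and whole retinas, were not analysed here. Each deposited table gives 1 non-integer signal value per gene, normalised by the authors in a way that is not given in the sources used here, as are genome build and length scaling. The submitters' processing notes name GSNAP and HTSeq without a version.

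Of 13083 entries per table, 27 without values and 61 exact duplicates were dropped, which left 12995 genes. Values were tested as log2(value + 1) with limma 3.58.1 in R 4.3.3, with a variance trend and 1 shared variance per gene over the 4 tissues. A gene entered the tests if its mean reached 1 in any tissue, which 11933 did. Two-sided p-values received the Benjamini-Hochberg adjustment within each of 6 comparisons, with a threshold of 0.05. The fit was checked on simulated data. Ratios within a library were compared by exact permutation.

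The 3 genes and the 18 gene lists were chosen with earlier results of these data known. Genes named from a list were taken from the 4 with the smallest adjusted p per list and comparison, or from the called genes where 5 or fewer went in 1 direction. Not every gene this allows is named, and other genes are marked where they appear. The labels do not say that equal replicate numbers mark 1 animal, so the main fit did not pair libraries. The alternatives were other pseudocounts, other filters, quantile or median-of-ratios scaling, no variance trend, a fit on only the 2 groups compared, a replicate block, and leaving out each library. Absolute sequencing depth is unknown because the values are not counts, so no counting interval is given.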

Additional observations from a re-analysis of the deposited data

Results flagged for a closer look

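The log2 ratio of PDGFRB to CDH5 had 1 central retina library that stood away from the other 3. Central replicate 4 was the lowest, and its gap to the nearest of the other libraries was 0.889 of the whole range of the 4 libraries. This was 1 of 5 sets of 4 central values examined in this way, and chance alone gives such a gap in some sets.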

How the results depend on the processing

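Of the differences of the 3 genes, 193 kept direction and side of the threshold when 1 library was left out, 4 lost the threshold and 1 changed sign; under other alternatives 159 kept both and 3 passed the threshold anew. KDR in central against peripheral retina ranged from -0.68 to -0.39 without 1 library. KDR in whole retina against whole eye was -0.0001 without whole retina replicate 2 (range -0.0001 to 0.18). KDR in peripheral retina against whole eye passed the threshold at 0.59 with quantile normalization, 0.53 with median-of-ratios scaling and 0.50 with the replicate block. Genes called in central against peripheral retina ranged from 1328 to 2889 without 1 library, and list members from 23 to 37. In whole retina against whole eye, 143 genes were called at a minimum mean of 5, 163 with only the 2 groups compared and 244 to 784 without 1 library. List members called there were 10 with a pseudocount of 5, 2 at a minimum mean of 5, 8 with quantile normalization and 3 to 21 without 1 library. The cause of these changes was not tested, except that the minimum mean leaves fewer genes.

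Scaling moved the split of calls. With quantile normalization, 59.5% of calls were higher in central against whole retina, compared with 38.9% unscaled, and 60.9% compared with 28.8% in peripheral against whole retina. Against whole eye, the shares were 59.1% compared with 38.1% for central and 61.7% compared with 30.9% for peripheral retina. With median-of-ratios scaling, central against whole eye had 50.3%, peripheral against whole retina 41.2% and peripheral against whole eye 46.9%. Under quantile normalization the median log2 difference of all genes was 0.12, compared with -0.10 unscaled, in central against whole retina, 0.16 compared with -0.08 in peripheral against whole retina, 0.10 compared with -0.17 in central against whole eye and 0.14 compared with -0.14 in peripheral against whole eye.

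Same-numbered libraries deviated together in 7 of 13 pairs above a correlation of 0.1 (range -0.19 to 0.36). In a group of 2 libraries the deviations mirror each other, so pairs with such a group are not separate checks. Between central and peripheral retina the highest correlations were 0.36 (central 1 with peripheral 2), 0.36 (3 with 3) and 0.35 (2 with 1). Whether regional libraries came from the same animals was not tested, and the main fit treated all libraries as independent. With the replicate block 2070 genes were called in central against peripheral retina, compared with 2538. Absolute depth is unknown, so the counting error of low signals such as CDH5 near 1 could not be estimated, and 2 libraries per group limit whole retina and whole eye.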
